A study of Mus musculus with 8 samples.

Results

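The visceral yolk sac endoderm secretory genes are 10 genes, *Afp*, *Ttr*, *Apoa1*, *Apoa4*, *Apob*, *Apom*, *Rbp4*, *Trf*, *Amn* and *Cubn*, chosen by name and not by a measured value. Every array probe whose RefSeq transcript belongs to one of them was read, which gave 13 probes on 31 spots, out of 55681 probes on 59305 spots in the whole data set. *Apob*, *Trf* and *Cubn* had 2 probes each, and the single *Afp* and *Apoa1* probes were each printed on 10 spots of every array. All 13 probes were well above background on all 8 arrays, no member spot was saturated, and all 13 were among the 33094 probes tested.

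Visceral yolk sac endoderm is the epithelium that wraps the early mouse embryo before its liver and placental circulation work. It takes up maternal protein and lipid by endocytosis on its outer face, and it secretes plasma proteins and lipoproteins towards the embryo, much as the liver does later. Alpha-fetoprotein, transthyretin and the apolipoproteins are its classical products, and cubilin with amnionless is its classical uptake receptor.

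RNA came from 8 *Eed* wt/wt embryos collected at E8.5, each on an Agilent 8x60K one-colour array of its own. Wild-type mothers, of C57bl6/129 background by the labels and c57bl/6J by the study's supplement, had been mated either to males heterozygous for the Eedl7Rn5-1989SB hypomorphic allele (*Eed* hypo/wt) or to *Eed* wt/wt males, with 4 embryos per group, 2 female and 2 male in each. EED is a core subunit of PRC2, which places H3K27me3, and the comparison asks whether a reduced EED dose in the father's germline alters expression in genetically wild-type offspring. The mutation is germline, so it acts in every tissue of the father, and neither group of embryos nor any mother carries it. Embryos were matched for stage from photographs. The labels give no number of fathers, and one legend of the study names fewer wild-type fathers than the embryos measured here, so embryos of a group may share one. The first part of the embryo code is common to 3 of the 4 embryos of wild-type fathers. P-values therefore measure the spread between these embryos only.

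The tissue is labelled embryo, with no mention of the yolk sac. All 14 listed markers of the embryo proper, among them *Sox2* and *Otx2* of the neural plate, *Tbx6* and *Meox1* of the mesoderm and *Nkx2-5* and *Tnnt2* of the heart, were well above background on 8 of 8 arrays. So were all 14 tested markers of visceral yolk sac endoderm outside the members, including *Lrp2*, *Dab2*, *Hnf4a* and *Apoa2*, and 6 of these 14 are also in the lists of lipoprotein, uptake or transcription factor genes used further on. RNA of both the embryo proper and its yolk sac endoderm genes was thus present on every array. Alpha-fetoprotein, transthyretin and apolipoproteins are also made by the fetal liver. The liver bud markers *Onecut1* and *Cps1* were well above background on 0 of 8 arrays, while *Hhex*, *Tbx3* and *Onecut2* of the same list were on 8 of 8, and 5 of 9 liver bud genes were testable. The part of liver bud RNA in the members' levels was not tested. In RNA of a whole sample, fewer cells of a type and less RNA per cell cannot be told apart.

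Each group of embryos was hybridised on a slide of its own, so slide and paternal genotype cannot be told apart. The number of probes well above background ran from 29226 to 39580, and the array of heterozygous father replicate 3 stood apart, as its median spot lay at -3.04 and those of the other arrays between -4.36 and -3.63. The array of heterozygous father replicate 4 had a median local background of 133 and a median negative control signal of 156 in intensity units, against 30 to 51 and 43 to 53 on the other 7. These and all levels are the log2 of the processed signal minus the array's 75th percentile, so that 0 is the signal at that percentile and 1 unit a doubling. Levels are compared within a probe only.

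The stretches directly upstream of the transcription start are shown for 4 members, *Afp*, the member that lay farthest below the mean of the other 7 embryos in wild-type father replicate 4, *Apob* and *Apoa4*, which had the largest differences between the groups of fathers, and *Apoa1*, the neighbour of *Apoa4* in one apolipoprotein gene cluster. The sequences are the 150 bases before the RefSeq start on GRCm38.p6, 5′ to 3′ on the sense strand, and lie at chr5:90490564-90490713, chr12:7977527-7977676, chr9:46240694-46240843 and chr9:46228480-46228629 in that order, all on the + strand. Capitals mark the letters of a searched motif on either strand.
Afp: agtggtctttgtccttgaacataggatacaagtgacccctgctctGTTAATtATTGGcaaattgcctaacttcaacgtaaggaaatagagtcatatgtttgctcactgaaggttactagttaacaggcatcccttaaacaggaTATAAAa
Apob: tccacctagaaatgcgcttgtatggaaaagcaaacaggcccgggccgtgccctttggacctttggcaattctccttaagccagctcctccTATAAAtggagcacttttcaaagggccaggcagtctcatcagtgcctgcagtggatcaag
Apoa4: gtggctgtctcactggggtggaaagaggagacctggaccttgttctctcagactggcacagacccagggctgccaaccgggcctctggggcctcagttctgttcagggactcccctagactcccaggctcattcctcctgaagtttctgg
Apoa1: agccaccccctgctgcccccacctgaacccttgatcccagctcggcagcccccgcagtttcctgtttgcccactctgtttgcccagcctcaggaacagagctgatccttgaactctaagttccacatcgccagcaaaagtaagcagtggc

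Over the 250 bases upstream, 7 strings were searched on both strands in the 8 members with a promoter sequence used here. They were GTTAAT, which occurs in promoters of liver genes, then CAAAGTCCA for HNF4 and TGTTTAC for FOXA factors. AGATAA was searched for factors of the GATA family, and TTGCGCAA for C/EBP proteins. The core promoter strings were TATAAA and, as the binding site of NF-Y, CCAAT. The *Afp* window held GTTAAT at -105 to -100, CCAAT on the minus strand at -98 to -94, with 1 base between them, and TATAAA at -7 to -2, counted from the start. GTTAAT lay in 6.43% of all 32851 RefSeq promoters of the same length, TATAAA in 12.4% and CCAAT in 33.9%. TATAAA was at -60 to -55 in *Apob* and at -28 to -23 in 1 of the 2 *Rbp4* windows, while the other held TGTTTAC at -241 to -235 and CCAAT at -162 to -158, both on the minus strand. *Amn* had CCAAT on the minus strand at -171 to -167. The windows of *Apoa1*, *Apoa4*, *Apom* and *Cubn* held none of the 7 strings, which says only that these letters are not there.

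Among the plasma carriers, *Rbp4* encodes the protein that carries retinol in blood. Its probe measured 7.77, 7.67, 7.80 and 7.49 in replicates 1 to 4 of wild-type fathers and 7.64, 7.76, 7.74 and 7.72 in those of heterozygous fathers. Wild-type father replicate 4 was lowest and the other 7 embryos lay within 0.16 of each other. The log2 fold change, heterozygous over wild-type fathers, was 0.03 (standard error 0.09), with a 95% interval from limma of 0.889-fold to 1.17-fold, the narrowest of the 10 genes.

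*Ttr* encodes transthyretin, which carries thyroid hormone and holds RBP4 in the circulation. Its levels were 6.39, 6.33, 6.32 and 5.91 with wild-type fathers and 6.24, 6.33, 6.37 and 6.14 with heterozygous fathers. Here too the groups overlapped and wild-type father replicate 4 was lowest. Group means were 6.24 ± 0.22 and 6.27 ± 0.10 (SD, n = 4), and the log2 fold change of 0.03 (standard error 0.12) had a 95% interval of 0.841-fold to 1.25-fold.

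*Afp* encodes alpha-fetoprotein, the main albumin-like protein of fetal blood. Levels of 7.67, 7.36, 7.54 and 6.82 were measured with wild-type fathers and 7.28, 7.48, 7.27 and 7.31 with heterozygous fathers. All 4 embryos of heterozygous fathers lay inside the range of the wild-type group, whose replicate 4 stood 0.46 below the next lowest of the 8. The 10 *Afp* spots of an array had an SD of 0.0188 to 0.0773, against 0.377 between embryos of wild-type fathers and 0.0995 between those of heterozygous fathers. Spot error was thus small beside the differences between embryos. The log2 fold change was -0.01 (standard error 0.18), with a 95% interval of 0.737-fold to 1.33-fold.

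*Trf* encodes transferrin, the iron carrier of plasma. Its brighter probe measured 6.0, 5.87, 5.98 and 5.32 with wild-type fathers and 5.73, 5.72, 5.69 and 5.66 with heterozygous fathers. Its second probe measured 4.62, 4.51, 4.66 and 3.95, then 4.59, 4.43, 4.43 and 4.37. On both probes the fourth embryo of the wild-type group was lowest. For the brighter probe, the other 3 lay above every embryo of heterozygous fathers. Over all 8 embryos the log2 fold changes were -0.09 (standard error 0.15) and 0.02 (standard error 0.16), with 95% intervals of 0.731-fold to 1.2-fold and 0.778-fold to 1.32-fold.

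For *Apoa1* and *Apom* the difference between the groups was smaller than its standard error, and *Apoa4* and *Apob* had lower means in embryos of heterozygous fathers that did not pass the test. *Apoa1* encodes the main protein of high-density lipoprotein. It measured 4.15, 4.18, 4.33 and 3.74 with wild-type fathers and 4.31, 4.37, 3.93 and 4.05 with heterozygous fathers, so its fold change on the log2 scale was 0.06 (standard error 0.16). The SD over its 10 spots was at most 0.0435 on any array, against 0.252 and 0.206 between embryos of the groups. *Apom*, whose product carries sphingosine-1-phosphate on lipoproteins, measured 6.28, 6.30, 6.29 and 5.93, then 6.23, 6.05, 6.21 and 6.17, which gave -0.04 (standard error 0.10). For both genes wild-type father replicate 4 was the lowest of the 8 and the groups overlapped.

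*Apoa4* encodes an apolipoprotein of chylomicrons and high-density lipoprotein. Its levels were 3.34, 2.96, 3.22 and 2.27 with wild-type fathers and 2.50, 2.65, 1.95 and 2.94 with heterozygous fathers. Unlike *Afp* and *Ttr*, its lowest embryo was heterozygous father replicate 3, and 3 of the 4 embryos of wild-type fathers lay above all 4 of the other group. The group means, 2.95 ± 0.48 and 2.51 ± 0.41 (SD, n = 4), differed by -0.44 on the log2 scale (standard error 0.29). The 95% interval ran from 0.463-fold to 1.18-fold.

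*Apob* encodes the structural protein of very-low-density lipoprotein and chylomicrons. The brighter probe measured 5.15, 4.84, 4.98 and 4.72 with wild-type fathers and 4.16, 4.33, 4.83 and 4.94 with heterozygous fathers. The dimmer one measured 4.04, 4.34, 3.74 and 3.64, then 2.81, 3.07, 3.30 and 4.19. On both probes heterozygous father replicates 1 and 2 were the lowest of the 8 embryos, and replicate 4 of that group lay among the wild-type group. Log2 fold changes were -0.36 (standard error 0.20) and -0.60 (standard error 0.31), with 95% intervals of 0.569-fold to 1.07-fold and 0.401-fold to 1.09-fold.

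**Figure D1:**
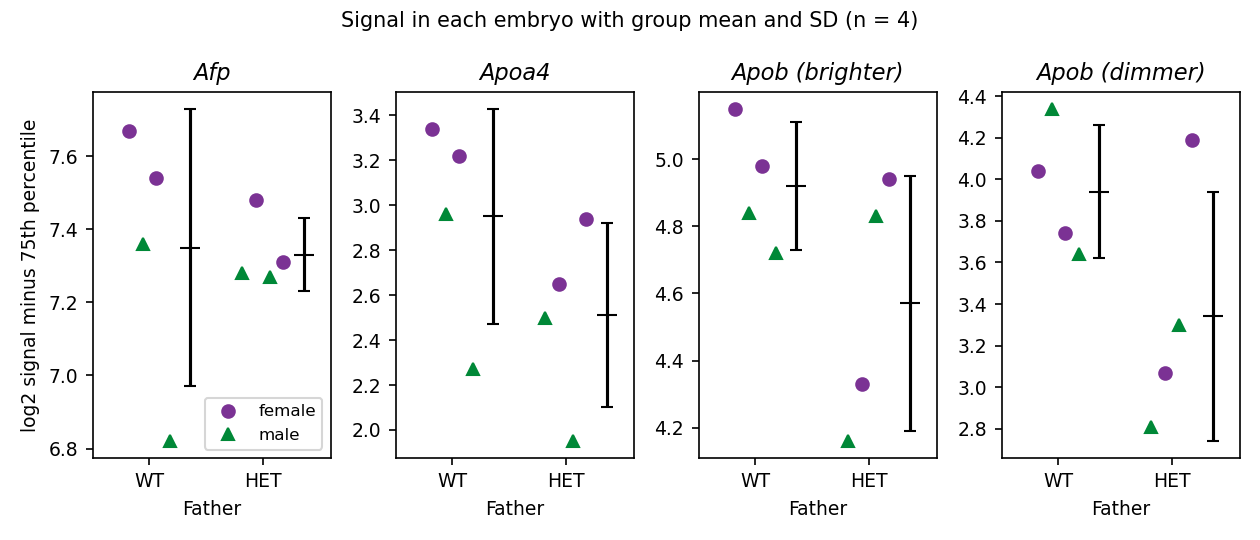
Level of *Afp*, *Apoa4* and both *Apob* probes in each of the 8 embryos (log2 signal minus the array's 75th percentile, a separate vertical scale that does not start at 0 for each probe), by paternal genotype on the horizontal axis. Circles are female and triangles male embryos, and the black line gives the group mean with its SD (n = 4). The lowest embryo is from a wild-type father for *Afp* (6.82) and from a heterozygous father for *Apoa4* (1.95) and *Apob* (4.16 and 2.81).

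For the receptor genes the difference between the groups was smaller than its standard error on each of 3 probes. *Cubn* encodes cubilin, which binds vitamin B12 with intrinsic factor, albumin, transferrin and apolipoprotein A-I, and *Amn* encodes amnionless, which anchors cubilin in the membrane. *Amn* measured 4.77, 4.71, 4.71 and 4.36 with wild-type fathers and 4.66, 4.6, 4.87 and 4.61 with heterozygous fathers, and its change on the log2 scale was 0.05 (standard error 0.11). The brighter *Cubn* probe measured 6.26, 6.33, 6.27 and 5.90, then 6.36, 6.08, 6.23 and 6.34, with 0.06 (standard error 0.12). On both of these probes wild-type father replicate 4 was lowest. The dimmer *Cubn* probe did not order the embryos in the same way. It measured 1.35, 1.81, 1.98 and 0.95, then 1.92, 1.72, 0.45 and 1.74, so that heterozygous father replicate 3 was lowest on it and in the middle of the range on the brighter probe. Its log2 fold change of -0.06 had a standard error of 0.37, the widest of the 13 probes.

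A probe was called when limma gave a Benjamini-Hochberg adjusted p under 0.01 and a change of 2-fold or more. Between the groups of fathers 0 of the 13 member probes were called, as were 0 of the 33094 probes tested (0.0%). At an unadjusted p under 0.05 there were again 0 of 13, where 4.39% of all tested probes passed, and the groups overlapped on all 13, where 3.22% of all tested probes did not. Every member probe had an adjusted p of 1.00 from limma. With the brightest probe for each gene, 5 genes had a higher and 5 a lower mean with heterozygous fathers, and 49.3% of all tested probes were lower. The median log2 fold change of the 10 genes was 0.01, beside 0.00 for all tested probes. Read in the same way, by brightest probe, 8962 of 15395 named genes were higher, with a median of 0.02. The SD within groups over the 13 probes ran from 0.106 to 0.581 with a median of 0.230, beside a median of 0.214 over all tested probes.

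Averaged over the members, wild-type father replicate 4 lay farthest from the mean of the 8 embryos. Each gene was expressed as its deviation from its own mean over the 8 embryos. Averaged over the 10 genes, the deviations were 0.207, 0.085, 0.172 and -0.325 with wild-type fathers and -0.061, -0.034, -0.061 and 0.016 with heterozygous fathers. The group means of 0.04 ± 0.25 and -0.04 ± 0.04 (SD, n = 4) differed by less than the SD of the wild-type group. Wild-type father replicate 4 was below the mean for 10 of 10 genes and was the lowest embryo for 8 of 10, where it was the lowest for 13.8% of 15395 named genes. The exceptions were *Apoa4* and *Apob*, described above. Wild-type father replicate 1 was the highest for 5 of the 10, where it was the highest for 10.8% of named genes.

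**Figure D2:**
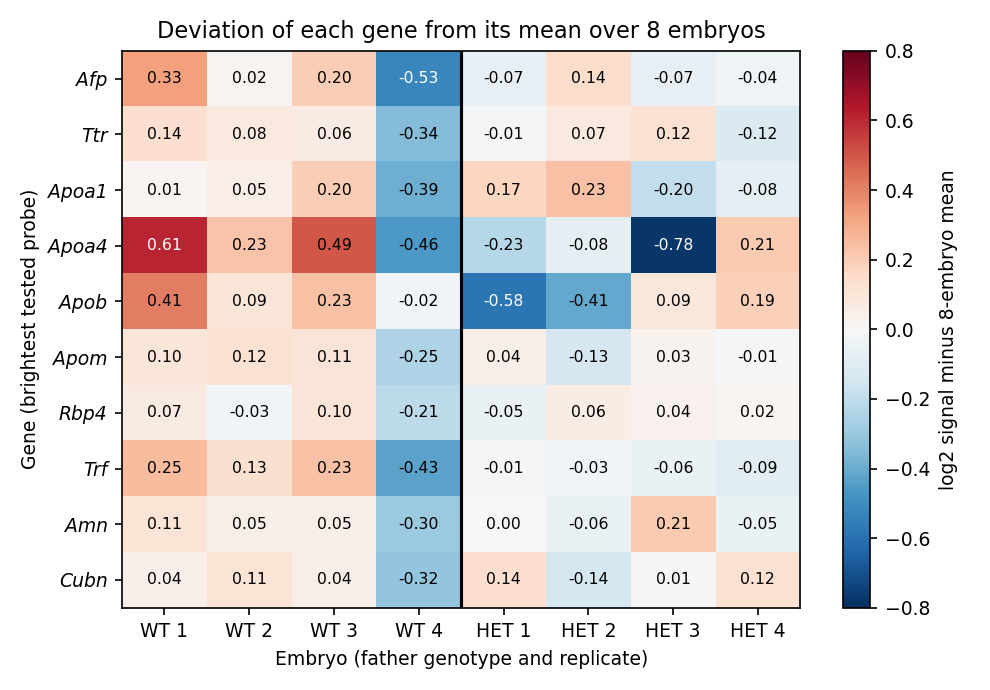
Deviation of each of the 10 genes (rows, brightest probe) from its mean over the 8 embryos (columns, by paternal genotype and replicate), as log2 signal, blue for lower and red for higher. The column of wild-type father replicate 4 is below 0 in all 10 rows, from -0.53 for *Afp* to -0.02 for *Apob*.

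Against the mean of the other 7 embryos, wild-type father replicate 4 was at 0.660-fold for *Afp*, 0.695-fold for *Apoa4*, 0.712-fold for *Trf*, 0.733-fold for *Apoa1*, 0.761-fold for *Ttr*, 0.778-fold for *Cubn* and 0.791-fold for *Amn*. *Apom* was at 0.821-fold, *Rbp4* at 0.847-fold and *Apob* at 0.981-fold. The median difference of the members was -0.38 on the log2 scale, beside 0.00 for all named genes. This embryo was singled out after its values were seen, so the counts are a description with no test.

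Other lists moved in the same embryo, and the part they play in the members' values was not tested. Of the 14 other yolk sac endoderm markers, 14 lay below the mean of the other embryos and 9 were lowest in wild-type father replicate 4, with a median of -0.31. Their mean deviation was -0.287 there, -0.097 to 0.060 with heterozygous fathers, and 0.022 to 0.130 in the other embryos of wild-type fathers. Of 14 tested other plasma proteins, 11 were below the other embryos and 7 were lowest there (median -0.39). Of 14 tested other apolipoprotein and lipoprotein assembly genes, 13 were below and 10 lowest (median -0.30). Of 15 tested genes of endocytic uptake, 11 were below and 6 lowest (median -0.10). Of 13 tested transcription factors of visceral endoderm, 5 were below and 3 lowest (median 0.14). Over all named genes, 7641 of 15395 were below.

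The primitive erythroid cells of the yolk sac blood islands, which lie beneath this endoderm, gave the largest shift of the 14 lists. All 12 of their genes were lowest in wild-type father replicate 4, with a median of -1.08. *Hbb-y*, the embryonic beta-type globin, measured 8.38, 7.94, 7.75 and 5.75 with wild-type fathers and 7.72, 7.96, 7.90 and 6.96 with heterozygous fathers. *Slc4a1*, the red cell anion exchanger, measured 3.44, 3.19, 3.0 and 1.56, then 3.30, 3.5, 3.23 and 2.90. The mean of the 12 genes was -0.999 in this embryo and -0.024 to 0.399 in the other 7. Markers of the embryo proper had a median of 0.26 there, with 8 of 14 at their highest in this embryo, and gut endoderm markers one of 0.11. Not every extraembryonic list was low in it. The 12 genes of extraembryonic mesoderm, allantois and amnion had a median of 0.17, with 2 below the other embryos and 0 lowest. The median was -0.045 for parietal endoderm and 0.174 for trophoblast and decidua.

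**Figure D3:**
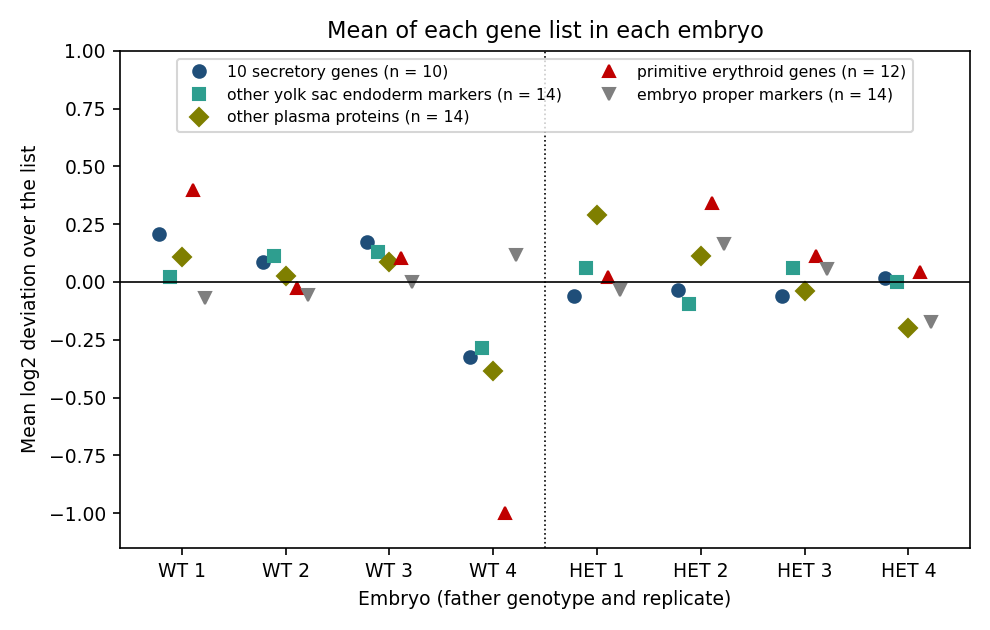
Mean log2 deviation of 5 gene lists in each of the 8 embryos, by paternal genotype and replicate, where 0 is the mean of the 8. In wild-type father replicate 4 the secretory genes (-0.325), the other yolk sac endoderm markers (-0.287), the other plasma proteins (-0.384) and the primitive erythroid genes (-0.999) lie below 0 and the embryo proper markers (0.116) above it.

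How far wild-type father replicate 4 stood apart depended on how arrays were brought to one scale. It was the lowest embryo for 8 of the 10 genes under quantile normalization and in the table of the whole series, and for 7 after normexp background correction. With arrays aligned on their medians it was lowest for 0 of 10. Heterozygous father replicate 3, the array with the unusual median, then had the lowest mean deviation at -1.032, beside -0.260 for wild-type father replicate 4. The difference between the members and the embryo proper markers on the same array is unchanged by a constant shift of that array. It can still change where arrays differ in spread. It was 0.275, 0.143, 0.172 and -0.441 with wild-type fathers and -0.026, -0.196, -0.116 and 0.189 with heterozygous fathers, again lowest in wild-type father replicate 4. Part of that low value came from the embryo proper markers, whose mean deviation was 0.116 in this embryo.

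The paternal comparison was also read without this embryo. It was singled out after its values were seen, as the low embryo of the members. Leaving it out raises the means of the wild-type group, so the lower fold changes below follow from that choice. The p-values and intervals rest on it too and are a description. The median log2 fold change of the members became -0.10, and the mean was higher with heterozygous fathers for 0 of 10 genes, where it was higher for 8967 of 15395 named genes. Calls by limma stayed at 0. At an unadjusted p under 0.05 there were 2 of 13 probes, where 4.18% of all tested probes passed. They were *Apoa4*, at -0.66 on the log2 scale (standard error 0.24, 95% interval -1.24 to -0.08), and the brighter *Trf* probe, at -0.25 (standard error 0.07, 95% interval -0.42 to -0.09), and limma's adjusted p was 1.00 for both. The second *Trf* probe did not pass, at -0.14 (standard error 0.08, 95% interval -0.35 to 0.06).

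*Apob* depended on other embryos, among them heterozygous father replicate 4, whose array had the high background of 133 against at most 51 on the others. The part of that background in these values was not tested. Heterozygous father replicate 4 was the highest of its group on both *Apob* probes, so leaving it out lowers that group's mean. The larger differences without it follow from that choice, and their p-values are a description. Both *Apob* probes then had an unadjusted p under 0.05 by limma. Log2 fold changes were -0.48 (standard error 0.19, limma adjusted p = 0.836) for the brighter and -0.88 (standard error 0.20, limma adjusted p = 0.663) for the dimmer. These probes were the 2 of 13 member probes that passed in that fit, where 5.78% of all tested probes did. Leaving out heterozygous father replicate 1, the lowest embryo on both *Apob* probes, made the differences smaller. They were then -0.22 (standard error 0.18) for the brighter and -0.42 (standard error 0.31) for the dimmer probe. Without heterozygous father replicate 3, the array with the unusual median, 0 of 13 passed by limma, where 9.35% of all tested probes did. *Apoa4* and *Apob* kept a negative sign in each alternative run, between -0.66 and -0.25 for *Apoa4* and between -0.48 and -0.22 for the brighter *Apob* probe. The -0.25 of *Apoa4* (standard error 0.27) came without heterozygous father replicate 3, its lowest embryo and the array with the unusual median. Its -0.66 came without wild-type father replicate 4. The size of the *Apoa4* difference thus depended on single embryos too.

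**Figure D4:**
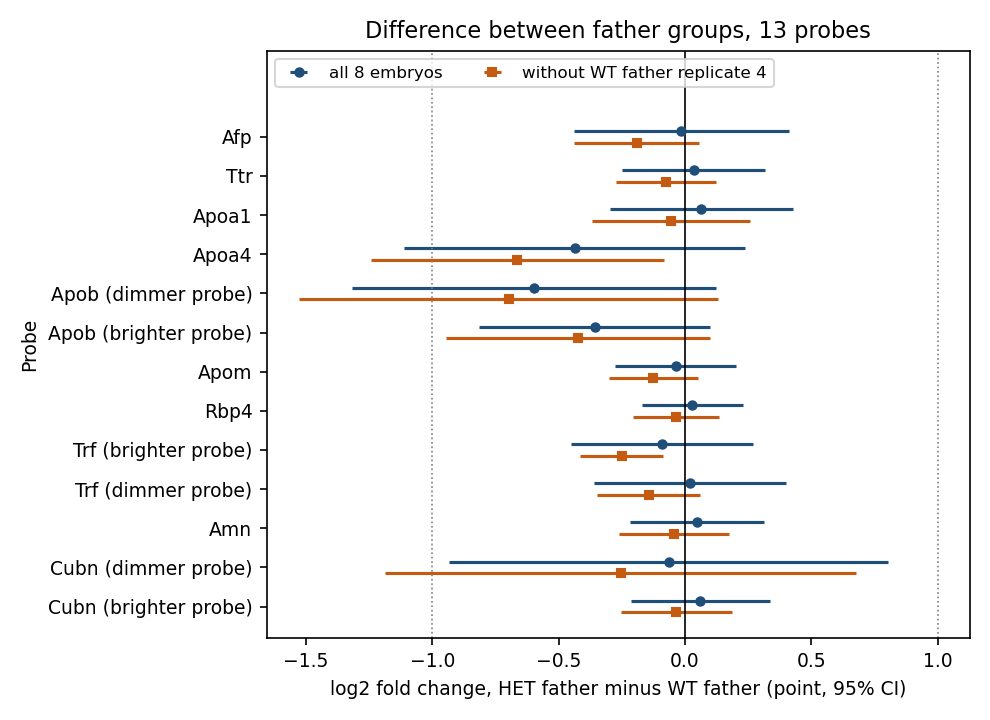
Log2 fold change of the 13 member probes between embryos of heterozygous and wild-type fathers (horizontal axis, points, with 95% intervals from limma), with all 8 embryos (circles) and without wild-type father replicate 4 (squares). Dotted lines mark 2-fold in each direction. With all 8 embryos each interval includes 0, and without that embryo those of *Apoa4* and the brighter *Trf* probe do not. That embryo was singled out after its values were seen.

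Sex was compared with a term for the father's genotype, 4 female against 4 male embryos. By the same rule, 0 of the 13 member probes were called with limma, where 11 of 33094 probes were (0.0332%). At an unadjusted p under 0.05 there was 1 of 13, where 3.27% of all tested probes passed. It was *Apoa4*, at 3.04 ± 0.31 in females and 2.42 ± 0.42 in males (SD, n = 4), a log2 difference of 0.62 (standard error 0.19, 95% interval 0.15 to 1.08, limma adjusted p = 1.00). Its females measured 3.34, 3.22, 2.65 and 2.94 and its males 2.96, 2.27, 2.50 and 1.95, and the groups overlapped. Within each group of fathers both females lay above both males for *Apoa4* and for *Afp*, 2 of 13 probes, where 2.56% of all tested probes did so.

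All 10 genes had a higher mean in females, where 45.4% of all tested probes did, with a median of 0.16 beside -0.02 over all tested probes. Wild-type father replicate 4 is male, and without it 6 of 10 were higher and the median was 0.05. For *Afp* the difference was 0.32 (standard error 0.15, 95% interval -0.05 to 0.68), and 0.17 without that embryo (standard error 0.09). *Apoa4* then differed by 0.47 (standard error 0.17) and kept an unadjusted p under 0.05. With arrays aligned on their medians the *Apoa4* difference was 0.76 with a standard error of 0.43, and 0 of 13 member probes had an unadjusted p under 0.05 by limma.

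Genes that act with the members were read from lists, and in each list 0 genes were called between the groups of fathers. Among other apolipoprotein and lipoprotein assembly genes, 2 of 14 tested had an unadjusted p under 0.05, both higher with heterozygous fathers. Over all tested probes, 4.39% passed at this p by limma, and the groups did not overlap on 3.22%. *Apoe*, whose protein directs lipoprotein remnants to their receptors, measured 6.97, 6.96, 7.10 and 6.73 with wild-type fathers and 7.14, 7.20, 7.22 and 7.21 with heterozygous fathers, without overlap (log2 fold change 0.25, standard error 0.09, limma adjusted p = 1.00). *Apoc1*, a small apolipoprotein encoded beside *Apoe*, measured 4.05, 3.47, 3.32 and 3.04, then 4.14, 4.16, 3.98 and 4.03 (log2 fold change 0.61, standard error 0.20, limma adjusted p = 1.00). For both the fourth embryo of the wild-type group was lowest, and without it the differences were 0.18 and 0.47. *Apoa2*, a protein of high-density lipoprotein, had -0.19, the *Apob* mRNA editing enzyme *Apobec1* -0.30 from a probe above background on 5 of 8 arrays, and the phospholipid transfer protein gene *Pltp* 0.26.

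For other plasma proteins, 0 of 14 tested genes had an unadjusted p under 0.05 by limma, and the median log2 fold change was -0.03. *Serpina1a*, an alpha-1 antitrypsin gene of a family of near-identical copies whose transcripts a probe may not separate, measured 1.15, -0.75, -1.01 and -1.55 with wild-type fathers and 1.98, 1.18, 0.98 and -0.85 with heterozygous fathers. It spanned a wider range than any member, the groups overlapped, and its log2 fold change was 1.36 (standard error 0.75). The vitamin D carrier gene *Gc* had 0.42 (standard error 0.19), the copper carrier *Cp* -0.34 and the vitamin E transfer protein gene *Ttpa* -0.14.

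Of the 15 tested uptake genes, 0 had an unadjusted p under 0.05 by limma, with a median of 0.01. *Lrp2*, whose product megalin takes up cubilin with its cargo, had -0.19, its adaptor *Dab2* 0.18, the IgG receptor gene *Fcgrt* -0.07 and the lysosomal protease gene *Ctsh* 0.06. Of the 11 tested partners of *Trf* and *Rbp4*, 1 had an unadjusted p under 0.05 by limma, where 4.39% of all tested probes passed. *Steap3*, the endosomal reductase of iron released from transferrin, measured -1.20, -0.86, -0.97 and -1.51, then -0.77, -0.83, -0.88 and -0.56 (log2 fold change 0.37, standard error 0.15, limma adjusted p = 1.00). Of the 13 tested transcription factors of visceral endoderm, 0 had an unadjusted p under 0.05 by limma. *Hnf4a*, a main regulator of apolipoprotein genes, measured 4.39, 4.67, 4.68 and 4.35, then 4.84, 4.63, 4.62 and 4.85 (log2 fold change 0.21, standard error 0.11), *Zbtb20*, a repressor of *Afp* in liver, had -0.21, and *Sox7* had 0.14.

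Markers of other cell types that the samples could hold were compared between the groups of fathers in the same fit, and 0 were called. The median log2 fold change was 0.04 for 12 parietal endoderm genes, 0.05 for 12 gut endoderm genes, 0.11 for 5 liver bud genes, 0.08 for 12 genes of extraembryonic mesoderm, allantois and amnion, and 0.00 for the 14 embryo proper markers. For the 12 primitive erythroid genes it was 0.21, with 12 of 12 higher, and without wild-type father replicate 4 it was -0.02, with 4 of 12 higher. The 10 trophoblast and decidua genes had a median of -0.05. *Prl8a2*, a prolactin family gene of the decidua, measured 1.99, 2.92, 1.56 and 2.31 with wild-type fathers and 0.72, 0.31, -2.61 and 0.54 with heterozygous fathers, without overlap (log2 fold change -2.45, standard error 0.75, limma adjusted p = 1.00). At an unadjusted p under 0.05 by limma there were 1 trophoblast and decidua gene, *Prl8a2*, 1 erythroid gene, the transcription factor *Tal1*, 1 embryo proper gene, *Pax3* of the dorsal neural tube, and 0 in the other 4 of these lists. Of all tested probes 4.39% passed, and the groups did not overlap on 3.22%. Whether any of these genes bears on the members' values was not tested.

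Genes outside the members were ranked by Pearson's r with the members' mean deviation over the 8 embryos, as a description. Of 15385 named genes, 38 had an r of at least 0.9. Among the highest were *Vps13a* (0.979), *Slc25a43* (0.967), *D030028A08Rik* (0.958), *Ly6g5b* (0.952), *Ap1b1* (0.950), *Cyb561d2* (0.944), *Tdrp* (0.944), *Hpn* (0.933), *Pgpep1* (0.932), *Nmnat3* (0.930) and *Hrh4* (0.928). Each of these 11 was lowest in wild-type father replicate 4, and without that embryo and wild-type father replicate 1, the pair farthest from the median, their r lay between 0.733 and 0.970. Among the 50 most alike genes, 2 of 148 genes of the lists were found, the antiplasmin gene *Serpinf2* and *Tcn2*, which encodes a vitamin B12 carrier. The members' own probes had an r with this mean, of which they are part, from 0.407 for the dimmer *Apob* probe to 0.973 for the brighter *Trf* probe.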

How the data were processed

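Total RNA of 8 E8.5 embryos was hybridised to one-colour Agilent 8x60K arrays. Feature Extraction (version 11.0.1.1) was run by the authors, and the intensity deposited for each spot has had its background and spatial trend removed but is not scaled between arrays. A deposited table of all arrays holds the same intensity values rounded, with 0 of its sample columns unused. Probe intervals in the scanner files are on mm9 and are not printed. Spot flags (control, outlier, saturated, well above background) came with the files the authors deposited.

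Control and outlier spots were dropped, log2 intensities were shifted by each array's 75th percentile, and replicate spots were averaged. Tests were run where at least 4 arrays had a probe well above background and its mean was outside the lowest 20%. This filter and the call (2-fold, adjusted p under 0.01) follow the methods, which name no test. The fit was made with limma 3.58.1 (R 4.3.3, data.table package version 1.17.8), adjusted by Benjamini-Hochberg over 33094 probes, as heterozygous minus wild-type fathers with no covariate. Tables and figures were made with Python 3.11.15, numpy 2.4.6, pandas 2.3.3, scipy 1.17.1 and matplotlib 3.10.9. Symbols were found through RefSeq (GRCm38.p6) for 27235 of the 28685 probes that carry a RefSeq accession, and promoter sequences are RefSeq's. A sequence is not shown for *Ttr*, and *Trf* had no entry in the promoter table used. The number of arrays limits the precision.

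The 10 members and the gene lists were chosen with earlier results of these data known. Named are all members with every probe, from each list up to 2 of the largest rises and falls among brightest tested probes, and the 12 genes most alike in pattern, except items that are not reported here. Genes named beyond this rule (*Apoe*, *Hbb-y*, *Slc4a1*, *Tal1*, *Pax3*, *Serpinf2*, *Tcn2* and some markers) were chosen after their values were seen. Lists for parietal endoderm, gut endoderm, liver bud, extraembryonic mesoderm and trophoblast with decidua served as marker checks. Alternatives were alignment of arrays on medians, quantile normalization, normexp (offset 50) on median spot signals, the table of all arrays, 2 other filters, sex or replicate as terms, a random block for the embryo code, another threshold, the mean of a gene's probes, and omission of each embryo. The fit was checked on simulated data.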

Additional observations from a re-analysis of the deposited data

Results flagged for a closer look

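The lowest or highest embryo of a group of 4 lay far from the other 3 in 9 of 54 groups examined, where chance gives about 1 in 20, or 2.7. The measure is the gap to the nearest embryo divided by the group's range, set against Dixon's critical value for 4 values. Wild-type father replicate 4 was the low embryo for *Apom* (0.935), *Ttr* (0.852), *Amn* (0.844), the brighter *Cubn* probe (0.839) and the mean of the other plasma proteins (0.834). In the group of heterozygous fathers, replicate 3 was low on the dimmer *Cubn* probe (0.865) and replicate 2 was high for *Afp* (0.839). Replicate 2 was also low for the mean of the extraembryonic mesoderm list (0.871) and of the gut endoderm list (0.851). The probes share arrays, so these are not independent.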

How the results depend on the processing

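The members' father comparison gave 0 called probes in each alternative, and so did their sex comparison. The paternal count over all tested probes was 0 to 1 with embryos left out one at a time (1 when the first embryo of wild-type fathers, or the fourth of heterozygous fathers, was missing). The sex count of 11 was 5 with no filter on dim probes, 0 with probes well above background on all 8 arrays, and 4 to 9 over the same omissions, and the cause was not tested. The members' median of 0.01 ran from -0.10 (without wild-type father replicate 4) to 0.07 (without wild-type father replicate 1).

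Of 180 refits of single members 160 kept their direction and 20 reversed, and the cause was not tested. Part of the 160 could not reverse. A changed filter, or sex or replicate as a term balanced over the groups, returns the same fold change. So does the mean of a gene's probes where the gene has a single probe. With arrays aligned on their medians, *Ttr* was -0.072, *Apoa1* -0.041, *Rbp4* -0.077, *Amn* -0.0585 and *Cubn* -0.045. Quantile normalization gave *Rbp4* -0.0093, normexp gave *Ttr* -0.0026, and the mean of both probes gave *Cubn* -0.0018. Over the omissions of an embryo, *Afp* ran from -0.19 to 0.094, *Ttr* from -0.075 to 0.085, *Apoa1* from -0.055 to 0.14, *Apom* from -0.13 to 0.0018, *Rbp4* from -0.036 to 0.068, *Amn* from -0.044 to 0.092 and *Cubn* from -0.035 to 0.12. Each lowest value came without wild-type father replicate 4.

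With the replicate block, 0 probes were called. The members' median of 0.0073 cannot change in that fit, because replicate numbers are balanced over the groups. Replicate numbers did not pair embryos (correlations of same-numbered embryos -0.548, -0.044, -0.588 and -0.149). Slide and father cannot be told apart, 4 embryos per group limit the precision, and all member probes lay well above background.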
